A study of Bos taurus with 6 samples.

Results

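The genes described here are nuclear genes for subunits of the mitochondrial respiratory chain, the series of inner-membrane complexes that pass electrons on to oxygen. The rule named 33 gene symbols of complexes I, III and IV, and took the most-counted row of the deposited count table for each. By symbol, 30 of the 33 were found among 28200 rows, 21 of complex I, 6 of complex III and 3 of complex IV, and all 30 passed the filter on low counts. COX6C and COX7C carried no matching symbol. Their rows were recognised through the RefSeq accession in the row description and are given apart from the 30. COX5B matched neither way and was not analysed here.

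The cells were primary mammary epithelial cells, isolated from bovine breast tissue of the Holstein breed and cultured, and their RNA was sequenced in bulk. The KLF6 knockout group had 3 libraries, from cells in which the gene for the transcription factor KLF6 had been disrupted with CRISPR/Cas9, and the wild-type group had 3 libraries from wild-type cells. Separate cultures are not mentioned in the labels, nor whether the knockout cells were 1 clone or a mixture. What the p-values measure is therefore only how these libraries spread, which may be technical. In bulk RNA, fewer cells of a type and less RNA per cell cannot be told apart.

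Complex I takes electrons from NADH through a hydrophilic arm that reaches into the matrix, and its membrane arm pumps protons. Ubiquinone carries the electrons to complex III, cytochrome c carries them to complex IV, and ATP synthase uses the proton gradient. In complex I, core subunits hold the flavin, the iron-sulphur clusters and the ubiquinone site, and accessory subunits surround them. The complexes mix nuclear and mitochondrially encoded subunits, and lactation makes heavy demands on ATP in mammary epithelium.

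Total counts ran from 17758180 to 18724879 in knockout libraries and from 17512892 to 18341853 in wild-type libraries. The members had between 303 and 10399 counts in a library, and summed to 0.378% to 0.385% of the counts in knockout and 0.362% to 0.379% in wild type. Wild-type replicate 3 stood apart from the other wild-type libraries, with a chi-square per degree of freedom of 9.14 and 9.12, against 2.27 to 2.79 for the other pairs within a genotype. KLF6 itself had 224, 230.1 and 217 CPM in knockout libraries and 503, 496 and 558 CPM in wild-type libraries, a log2 fold change of -1.21 ± 0.05 (edgeR adjusted p = 2.25e-13). CPM are counts per 1e+06 counts of the scaled library, and each log2 fold change sets knockout over wild type and is given ± SE. All 9 mammary epithelial markers were read, and of 4 luminal secretory genes the milk protein genes CSN2, CSN3 and LALBA were at 0. The summed CPM of the 9 epithelial markers lay between 7841 and 8032 in knockout and between 17915 and 19203 in wild type, and that of 8 fibroblast markers between 245 and 258 in knockout and between 1054 and 1250.0 in wild type. The epithelial sum was mostly KRT5, KRT8, KRT18 and ITGA6, all lower, while EPCAM (167 CPM in knockout, 165 in wild type) and CDH1 (290.3 in knockout, 306 in wild type) were not called and KRT14 was higher (515 in knockout, 304 in wild type). The fibroblast sum was mostly DCN, at 229 CPM in knockout, against 1134 in wild type, and COL1A2 was higher, at 5.18 CPM in knockout and 0 in wild type. Leukocyte markers summed to at most 5.22 CPM in knockout, against 4.86 CPM in wild type, with PTPRC at 0. Adipocyte markers summed to at most 3.51 CPM in knockout, against 2.35 CPM in wild type, with ADIPOQ at 0. Among endothelial markers, PECAM1 had 31.3 CPM in knockout, against 0.219 CPM in wild type, VWF went the other way at 0.242 CPM in knockout, against 3.57 CPM in wild type, CDH5 had 1 read in all knockout libraries and 18 in all wild-type libraries, and KDR was at 0. The part of these marker differences in the members' values was not tested.

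The members did not move as a block. In knockout cells 12 of the 30 were higher and 10 were lower in the edgeR quasi-likelihood test at an adjusted p of 0.05, and 8 were not called. That is 73.3% called. Of all 13390 genes tested, 74.6% were called, 37.1% higher and 37.6% lower, so the share of members called lay near that of all genes. It was 83.2% among the 5335 tested genes within the members' range of mean CPM. Against a fold of 1.2 (edgeR glmTreat), 11 members were higher and 5 lower, while 55.8% of all genes passed, 27.7% higher and 28.1% lower. The members' median log2 fold change was -0.06, with the middle of the list between -0.25 and 0.45, while the median over all genes was -0.01, with the middle between -0.51 and 0.48. Their summed level was 3927, 3849 and 3902 CPM in knockout libraries, against 3722, 3557 and 3711 CPM in wild-type libraries. The groups lay close without overlap, but that separation depended on the scaling of the libraries. As a share of unscaled counts, knockout replicate 2 (0.378%) lay below wild-type replicate 3 (0.379%). COX4I1 alone, with a mean of 573 CPM for knockout against 361 CPM for wild type, differed about as much as the sum. Gene by gene, all knockout libraries lay above wild type for 12 members and below it for 10, and 8 overlapped, against 37.9% above and 38.3% below over all tested genes.

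Most differences of the members were modest in size. The largest rise was 1.03 and the largest fall -1.0 on the log2 scale. At least 1.5-fold differences were called for 7 members, 5 higher and 2 lower, which is 23.3% of the 30. The same rule was passed by 41.5% of all tested genes, 20.1% higher and 21.5% lower, and by 34.3% of genes within the members' range of mean CPM. At least 2-fold differences were called for 2 members, or 6.67%, against 22.3% of all tested genes and 12.7% within that range. The median size of the log2 fold change was 0.35 for the members, 0.50 for all genes and 0.42 for genes in the members' range.

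By complex, the counts differed, on few genes in complexes III and IV. All 3 complex IV members found by symbol were higher, but COX6C, a complex IV gene of the rule recognised by accession, was lower (-0.73), and so was COX7A2L, which was no member (-0.42). Over all genes tested, 37.1% were higher and 37.6% lower. In the other complexes, 4 of the 6 complex III members were lower and 1 was higher, and complex I divided into 8 higher, 6 lower and 7 not called. With the median of each gene's chromosome taken out, as described further on, the counts were 3 higher in complex IV, 1 higher and 3 lower in complex III, and 10 higher and 5 lower in complex I. Complex IV members summed to 969, 941 and 959 CPM in knockout libraries and 631, 572 and 648 CPM in wild-type libraries. Complex III members summed to 880.4, 869.9 and 883 CPM in knockout and 1074, 1039 and 1099 CPM in wild type. Complex I members summed to 2077, 2038 and 2059 CPM in knockout and 2017, 1947 and 1964 CPM in wild type, close to each other although the libraries did not overlap. That separation depended on the scaling of the libraries, whose factors were 0.982 to 0.984 in knockout and 1.012 to 1.022 in wild type.

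**Figure D1:**
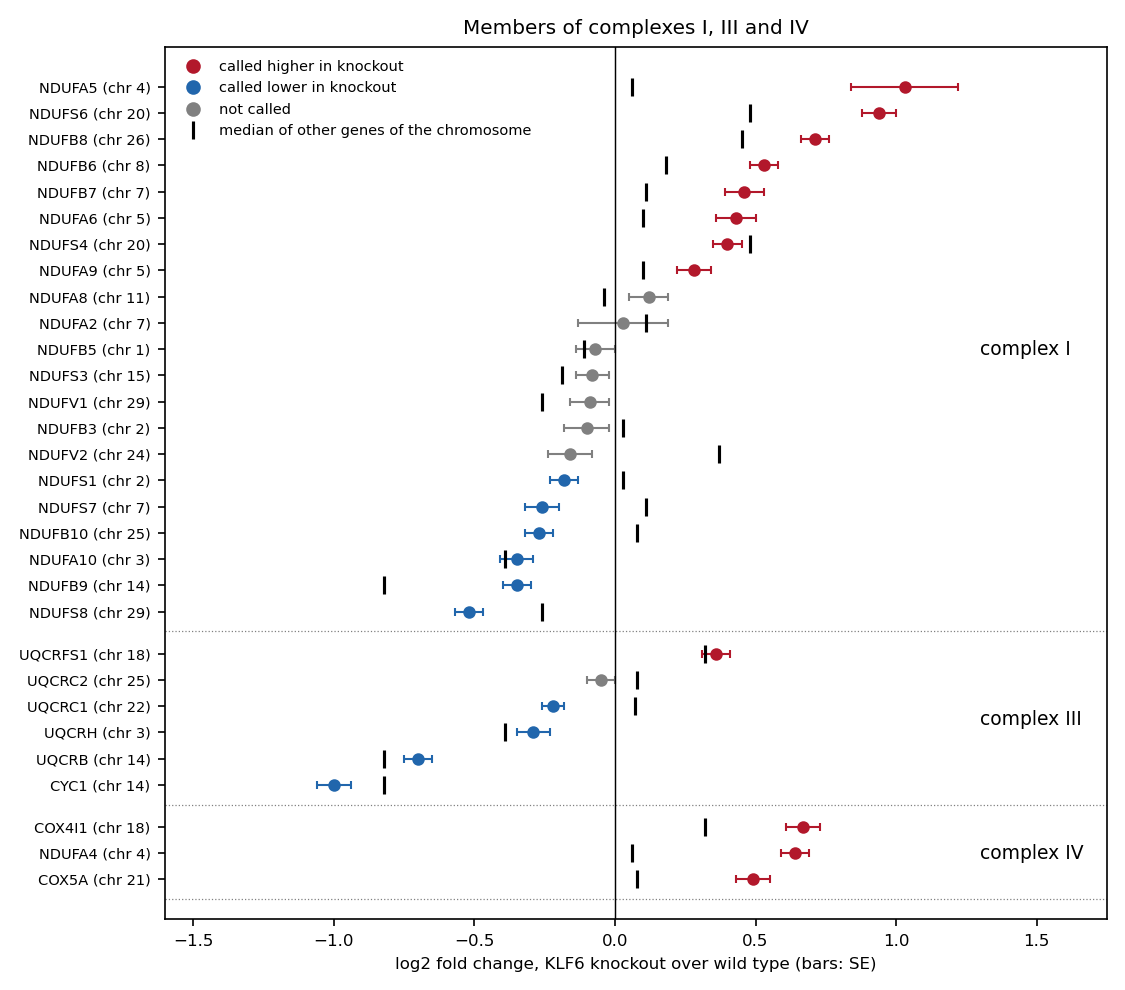
Log2 fold change of each of the 30 members, KLF6 knockout over wild type, on the x axis, with bars of 1 SE, grouped by complex and labelled with the chromosome. Red points were called higher, blue points lower and grey points were not called, and the black tick marks the median of the other tested genes of the same chromosome. The 3 complex IV members found by symbol lie on the right, and complex III has only UQCRFS1 there among its called members.

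Within complex I, no core member rose, although NDUFV1 was called higher once chromosome medians were taken out. The 6 core members were 3 lower and 3 not called, with log2 fold changes between -0.52 and -0.08 and a median of -0.17. The 15 accessory members were 8 higher, 3 lower and 4 not called, with a median of 0.28. Of the accessory members 73.3% were called, near the 74.6% of all tested genes, where 37.1% were higher and 37.6% lower. With only 6 core members, the share of them called rests on few genes. Core members summed to 739.9, 724 and 737 CPM in knockout libraries, against 864, 851 and 870.2 CPM in wild-type libraries. Accessory members summed to 1337, 1314 and 1322 CPM in knockout libraries, against 1152, 1096 and 1094 CPM in wild-type libraries. So the core sum was lower and the accessory sum was higher in every knockout library than in any wild-type library. The arms of the complex did not divide that way, with 5 higher and 3 lower of 12 in the hydrophilic arm and 3 higher and 3 lower of 9 in the membrane arm. The difference between core and accessory genes was not itself tested.

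NDUFS8, which carries iron-sulphur clusters on the way to ubiquinone, had the largest fall among the core members. The gene (ENSBTAG00000012072, chromosome 29, 45559236 to 45563283) had 169, 159.8 and 167 CPM in knockout libraries and 248, 246 and 219 CPM in wild-type libraries. Every knockout library lay below every wild-type library. The log2 fold change was -0.52 ± 0.05 (edgeR adjusted p = 4.1e-08), a level 1.44-fold lower in knockout. NDUFS7, which holds the last cluster before ubiquinone, had 48.6, 49.7 and 51.2 CPM in knockout libraries and 57.5, 58.9 and 62.6 CPM in wild-type libraries. Here too the groups were separate, and the log2 fold change was -0.26 ± 0.06 (edgeR adjusted p = 0.000654). NDUFS1, the largest iron-sulphur protein of the NADH-oxidising module, had 124, 131 and 122 CPM in knockout libraries and 142, 143 and 143 CPM in wild-type libraries. The wild-type libraries of NDUFS1 lay close together and above all knockout libraries, with a log2 fold change of -0.18 ± 0.05 (edgeR adjusted p = 0.00252).

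The other 3 core members were not called. NDUFV1, which binds the flavin that takes electrons from NADH, had 221, 205 and 214 CPM in knockout libraries and 214, 207 and 259 CPM in wild-type libraries. Its groups overlapped, and wild-type replicate 3 was the high library. The log2 fold change was -0.09 ± 0.07 (edgeR adjusted p = 0.301) and 0.02 without that library. NDUFV2, the iron-sulphur partner of NDUFV1, had 93.7, 98.2 and 99.7 CPM in knockout libraries and 115, 119 and 92.6 CPM in wild-type libraries. For this gene wild-type replicate 3 was the low library, just below the knockout libraries, while the other wild-type libraries lay above them. The log2 fold change of NDUFV2 was -0.16 ± 0.08 (edgeR adjusted p = 0.0727), and -0.26 without wild-type replicate 3 (edgeR adjusted p = 6.17e-06), where it was called lower. NDUFS3, a core protein of the ubiquinone-facing module, had 83.3, 79.9 and 83.3 CPM in knockout, against 88.3, 77.6 and 94.0 CPM in wild type, which overlapped (log2 fold change -0.08 ± 0.06, edgeR adjusted p = 0.277). Without wild-type replicate 2, NDUFS3 was called lower at -0.15 (edgeR adjusted p = 0.0288).

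Among accessory genes of the hydrophilic arm, NDUFA5 and NDUFS6 rose most. NDUFA5 (ENSBTAG00000009334, chromosome 4, 87871092 to 87887305), an accessory subunit of the ubiquinone-facing module, had 45.4, 49.97 and 51.1 CPM in knockout libraries and 28.0, 27.0 and 16.6 CPM in wild-type libraries. The knockout libraries lay well above the wild-type ones, of which replicate 3 was by far the lowest. The log2 fold change was 1.03 ± 0.19 (edgeR adjusted p = 0.00261), or 2.05-fold, and 0.83 without wild-type replicate 3. NDUFS6 (ENSBTAG00000009914, chromosome 20, 70839103 to 70844383), a zinc-binding subunit joined late in assembly, had 137, 124 and 126 CPM in knockout libraries and 67.3, 62.3 and 71.9 CPM in wild-type libraries. Each knockout library held far more than any wild-type library, and the log2 fold change was 0.94 ± 0.06 (edgeR adjusted p = 9.44e-11).

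Smaller rises were seen for NDUFS4, NDUFA6 and NDUFA9, each without overlap between the groups. NDUFS4, whose loss in mice and people gives a Leigh-like encephalopathy, had 117, 103 and 104 CPM in knockout libraries and 81.9, 80.9 and 82.7 CPM in wild-type libraries, a log2 fold change of 0.40 ± 0.05 (edgeR adjusted p = 2.98e-06). NDUFA6, which binds an acyl carrier protein, had 50.7, 53.4 and 54.3 CPM in knockout, against 39.6, 43.1 and 34.97 CPM in wild type, a log2 fold change of 0.43 ± 0.07 (edgeR adjusted p = 3.86e-05). NDUFA9, a nucleotide-binding subunit where the arms meet, had 85.6, 95.7 and 91.9 CPM in knockout, against 78.2, 76.7 and 70.5 CPM in wild type, a log2 fold change of 0.28 ± 0.06 (edgeR adjusted p = 0.000283). NDUFA2, a small thioredoxin-fold subunit, could not be placed. It had 31.3, 32.2 and 31.5 CPM in knockout libraries and 29.0, 24.4 and 39.6 CPM in wild-type libraries, so the wild-type values spanned the knockout ones. The log2 fold change of NDUFA2 was 0.03 ± 0.16 (edgeR adjusted p = 0.867), and 0.25 without wild-type replicate 3 (edgeR adjusted p = 0.00637).

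In the membrane arm, NDUFB8, NDUFB6 and NDUFB7 were higher in knockout. NDUFB8 (ENSBTAG00000000091, chromosome 26, 21414963 to 21420753), an accessory subunit of the far end of the arm, had 223, 218 and 222 CPM in knockout libraries and 139.6, 126 and 139 CPM in wild-type libraries. The groups were far apart, at a log2 fold change of 0.71 ± 0.05 (edgeR adjusted p = 2.57e-10). NDUFB6, a small membrane-spanning subunit, had 73.5, 73.1 and 72.9 CPM in knockout, against 50.9, 51.7 and 49.9 CPM in wild type. Libraries of 1 genotype barely differed for NDUFB6, and its log2 fold change was 0.53 ± 0.05 (edgeR adjusted p = 6.32e-08). NDUFB7, which faces the intermembrane space, had 118, 114 and 116 CPM in knockout, against 92.3, 88.1 and 71.5 CPM in wild type, with wild-type replicate 3 the lowest library. Its log2 fold change was 0.46 ± 0.07 (edgeR adjusted p = 5.6e-05), and 0.36 without that library.

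NDUFA10, NDUFB9 and NDUFB10 were lower in knockout, each with separate groups. NDUFA10, a matrix-side subunit related to nucleoside kinases, had 121, 125 and 112 CPM in knockout libraries and 164, 148 and 144 CPM in wild-type libraries (log2 fold change -0.35 ± 0.06, edgeR adjusted p = 1.92e-05). NDUFB9, which holds the acyl carrier protein at the far end of the membrane arm, had 92.0, 87.8 and 89.7 CPM in knockout libraries and 116, 114 and 112 CPM in wild-type libraries (log2 fold change -0.35 ± 0.05, edgeR adjusted p = 2.91e-06). NDUFB10, an intermembrane-space subunit, had 76.1, 73.9 and 80.7 CPM in knockout libraries and 92.7, 94.5 and 92.0 CPM in wild-type libraries (log2 fold change -0.27 ± 0.05, edgeR adjusted p = 0.000106). NDUFB9 overlaps MTSS1 on the other strand, at 21.4 CPM in knockout, against 34.4 CPM in wild type. Since the strand setting of the counting is not given, reads of such pairs cannot be told apart with certainty.

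The remaining membrane-arm members overlapped between the groups and were not called. NDUFA8, which faces the intermembrane space, had 77.8, 73.6 and 72.4 CPM in knockout, against 70.8, 61.0 and 73.6 CPM in wild type (log2 fold change 0.12 ± 0.07, edgeR adjusted p = 0.0956). Without wild-type replicate 3 it was called higher, at 0.18 (edgeR adjusted p = 0.00618). The membrane-spanning subunit NDUFB3 had a log2 fold change of -0.10 ± 0.08 (edgeR adjusted p = 0.231), with 33.8 ± 2.03 CPM in knockout, against 36.2 ± 2.76 CPM in wild type (SD, n = 3 each). NDUFB5, another of these, had 58.7 ± 5.48 CPM in knockout, against 61.6 ± 4.36 CPM in wild type (SD, n = 3 each), a log2 fold change of -0.07 ± 0.07 (edgeR adjusted p = 0.382). NDUFB5 overlaps MRPL47 on the other strand, which had 11.7 CPM in knockout, against 23.5 CPM in wild type.

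**Figure D2:**
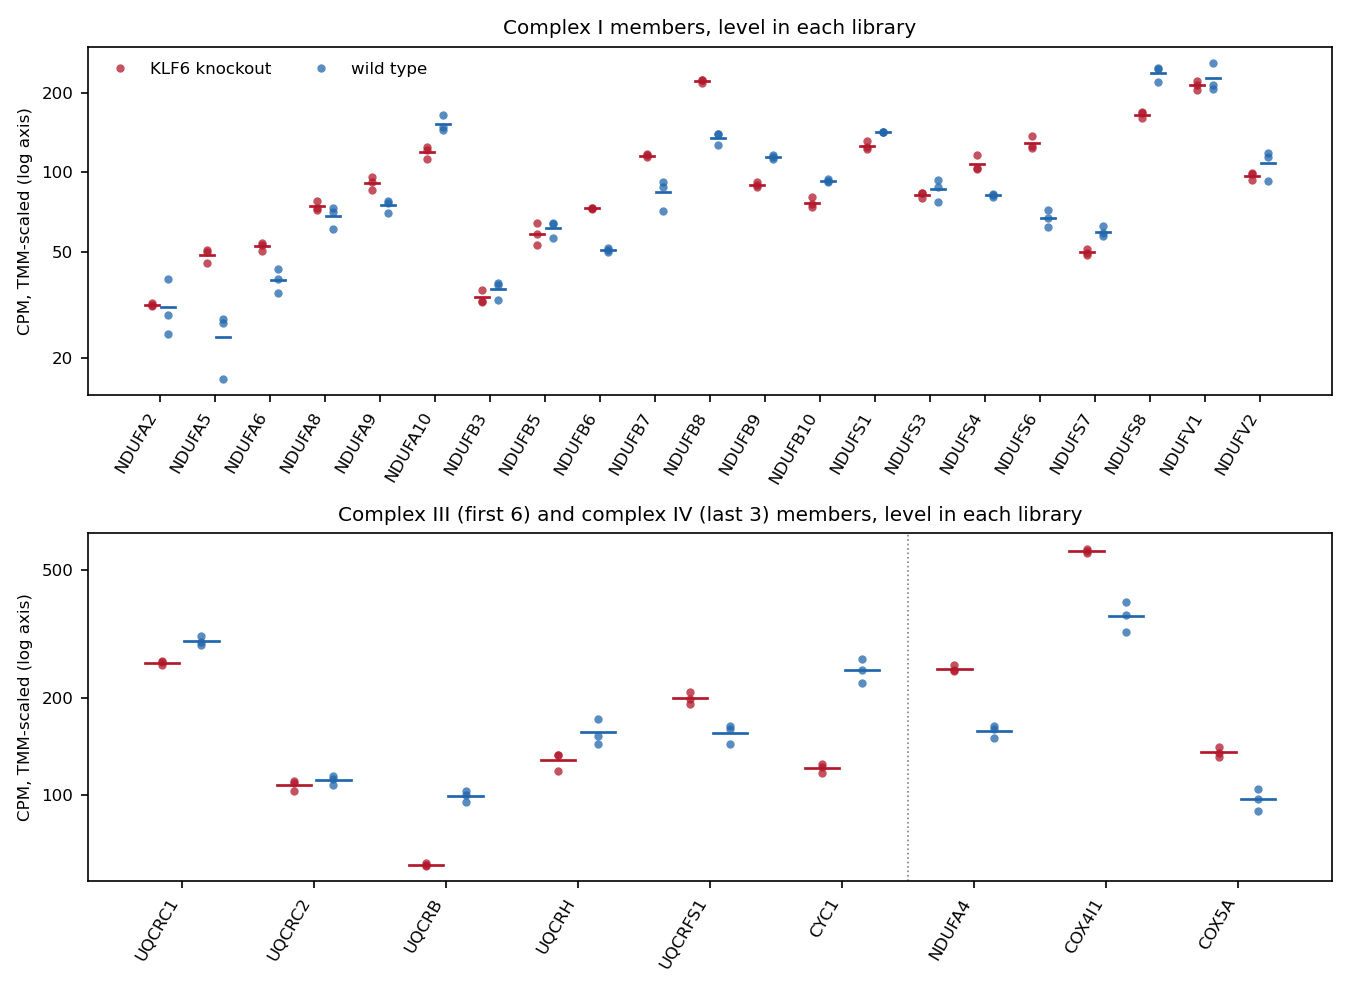
CPM of each member in each library, on a log axis, with the 3 KLF6 knockout libraries left of the 3 wild-type libraries and a bar at the mean of each group. Read within a gene, the groups lie apart for 22 of the 30 members, and the wild-type points of NDUFA5 and NDUFA2 spread widest around their means.

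Complex III held the largest fall of all members. CYC1 (ENSBTAG00000012232, chromosome 14, 738124 to 740518), the gene for cytochrome c1, which hands electrons to cytochrome c, had 123, 118 and 125 CPM in knockout libraries and 245, 223 and 266 CPM in wild-type libraries. Each knockout library had about as much CYC1 as the others and far less than any wild-type library. The log2 fold change was -1.0 ± 0.06 (edgeR adjusted p = 3.74e-11), a level 2.01-fold lower in knockout. UQCRB (ENSBTAG00000001521, chromosome 14, 67986645 to 67991355), a small subunit at the ubiquinone-binding side, had 60.7, 60.6 and 61.9 CPM in knockout libraries and 100.2, 103 and 95.2 CPM in wild-type libraries. Its knockout libraries were nearly equal and all below wild type, at a log2 fold change of -0.70 ± 0.05 (edgeR adjusted p = 7.72e-10).

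UQCRH and UQCRC1 fell less. UQCRH, the hinge protein that helps cytochrome c1 meet cytochrome c, had 133, 119 and 134 CPM in knockout libraries and 153, 145 and 173 CPM in wild-type libraries (log2 fold change -0.29 ± 0.06, edgeR adjusted p = 0.000693). UQCRC1, a core protein related to mitochondrial processing peptidases, had 262, 253 and 260.2 CPM in knockout, against 299, 293 and 313 CPM in wild type (log2 fold change -0.22 ± 0.04, edgeR adjusted p = 0.000169). Both genes had separate groups. UQCRC2, its partner core protein, overlapped, with 104, 109.6 and 111 CPM in knockout, against 113, 115 and 108 CPM in wild type (log2 fold change -0.05 ± 0.05, edgeR adjusted p = 0.366). UQCRFS1, the Rieske iron-sulphur protein, was the single member of complex III that rose. It had 199, 209.9 and 192 CPM in knockout libraries and 164, 161 and 144 CPM in wild-type libraries, separate groups at a log2 fold change of 0.36 ± 0.05 (edgeR adjusted p = 1e-05).

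In complex IV, COX4I1 (ENSBTAG00000016079, chromosome 18, 11758912 to 11767078), the ubiquitous form of a subunit that joins early in assembly, had 581, 565 and 573 CPM in knockout libraries and 363, 321 and 399.5 CPM in wild-type libraries. All knockout libraries lay far above wild type, at a log2 fold change of 0.67 ± 0.06 (edgeR adjusted p = 8.16e-08). COX4I1 overlaps EMC8 on the other strand, which had 90.5 CPM in knockout, against 39.8 CPM in wild type. NDUFA4 (ENSBTAG00000011145, chromosome 4, 19041321 to 19049196), named as a complex I gene and now placed in complex IV, had 253, 244 and 245 CPM in knockout libraries and 164, 161 and 151 CPM in wild-type libraries. Its groups were likewise apart, at 0.64 ± 0.05 (edgeR adjusted p = 5.23e-10). COX5A (ENSBTAG00000017267, chromosome 21, 33764338 to 33776146), a matrix-side subunit, had 136, 132 and 142 CPM in knockout libraries and 105, 89.8 and 97.5 CPM in wild-type libraries, again separate, at 0.49 ± 0.06 (edgeR adjusted p = 3.56e-07).

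The pair recognised by accession moved in opposite directions. COX7C, a small membrane-spanning subunit, had 186, 189 and 192 CPM in knockout libraries and 136, 131 and 149 CPM in wild-type libraries, a log2 fold change of 0.45 ± 0.05 (edgeR adjusted p = 2.54e-07). COX6C, another one, had 81.3, 91.4 and 89.5 CPM in knockout libraries and 151, 147 and 138 CPM in wild-type libraries, a log2 fold change of -0.73 ± 0.05 (edgeR adjusted p = 9.1e-10). Both had separate groups. With this pair counted in, an alternative chosen after the data were seen, 13 of 32 genes were higher and 11 were lower. Rows with the same description on other chromosomes held few reads, at most 13 in all knockout libraries and 5 in all wild-type libraries for COX7C, and 0 for NDUFA4.

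Per kilobase of the gene length given in the count table (RPKM), COX4I1 stood highest, at 528 ± 7.04 RPKM in knockout and 333 ± 36.1 RPKM in wild type (SD, n = 3 each). In wild type UQCRB at 209 ± 8.20, CYC1 at 201 ± 17.6 and UQCRC1 at 192 ± 6.55 RPKM came next, and neighbours in that run lay within their spread of each other. In knockout, the ranks below COX4I1 were taken by NDUFA4 at 236 ± 4.92, NDUFB8 at 223 ± 2.69 and NDUFB7 at 202 ± 3.28 RPKM. CYC1 had 100.5 ± 3.18 RPKM and UQCRB 128 ± 1.49 RPKM in knockout. At the low end were NDUFS7 in knockout, at 33.9 ± 0.910 RPKM, and NDUFA5 in wild type, at 29.3 ± 7.79 RPKM.

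The direction of many members, though not of all, was that of the chromosome they lay on. The 30 members sit on 18 chromosomes, and over whole chromosomes the genes shifted by different amounts. On chromosome 14, 79.8% of 297 tested genes were lower and 7.74% higher, with a median log2 fold change of -0.82. On chromosome 20, 68.1% of 216 tested genes were higher, with a median of 0.48. All 3 members on chromosome 14, CYC1, UQCRB and NDUFB9, were lower, as was COX6C on the same chromosome. Both members on chromosome 20, NDUFS6 and NDUFS4, were higher, as were both on chromosome 18, COX4I1 and UQCRFS1, and NDUFB8 on chromosome 26, where the medians were 0.32 and 0.45. Both members on chromosome 3, NDUFA10 and UQCRH, were lower, where the median was -0.39. Other members did not follow a shifted chromosome. NDUFV2, at -0.16 and not called, lies on chromosome 24, where 60.2% of 186 tested genes were higher and the median was 0.37. The 20 tested genes nearest to NDUFV2, however, had a median of 0.07, with 8 higher and 4 lower. On chromosome 29, with a median of -0.26, NDUFS8 was lower and NDUFV1 was not called.

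Across the 30 members, the log2 fold change and the median of the other genes of the chromosome had a Pearson r of 0.74 and a Spearman rho of 0.68, and 22 of 30 (73.3%) had the same sign. Of the 13296 other tested genes, 60.7% had the sign of their chromosome's median. Without the members on chromosome 14 these were 0.62, 0.57 and 19 of 27. The points share the 6 libraries, and some share a chromosome, so this is a description. Of the 13 members on chromosomes whose median was at least 0.25 in size, 5 were higher, 6 lower and 2 not called. Of the 17 on other chromosomes, 7 were higher, 4 lower and 6 not called, with a median log2 fold change of 0.03. These are 84.6% and 64.7% called, against 74.6% of all tested genes, 37.1% higher and 37.6% lower. The share over all genes was not taken apart for these groups of chromosomes, so the split gives counts only.

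**Figure D3:**
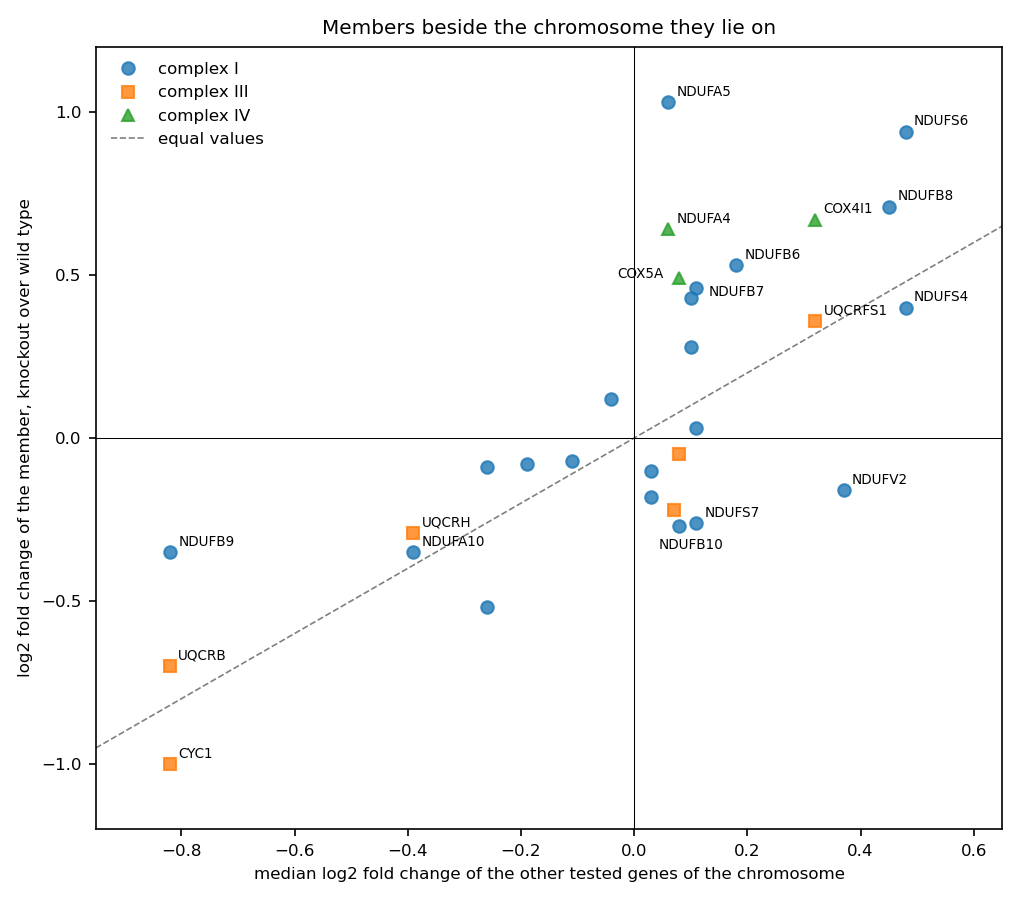
Log2 fold change of each member on the y axis against the median log2 fold change of the other tested genes of its chromosome on the x axis, with 1 point per member, shaped by complex, and a dashed line of equal values. CYC1, UQCRB and NDUFB9 sit at -0.82 on the x axis, while NDUFA5, NDUFA4 and COX5A lie far above a chromosome median near 0.

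When each chromosome's median was taken out in the fit, 14 members were called higher and 8 lower, against 71.6% of all genes called, 36.5% higher and 35.1% lower. All 3 complex IV members stayed higher. NDUFA4 had 0.58 (edgeR adjusted p = 2.51e-09), COX5A 0.41 (edgeR adjusted p = 3.3e-06) and COX4I1 0.35 (edgeR adjusted p = 0.000107) on the log2 scale. NDUFA5, NDUFS6 and NDUFB8 also stayed higher, at 0.97, 0.46 and 0.26. For the core of complex I, NDUFS8 at -0.26 (edgeR adjusted p = 0.000194) remained lower, as did NDUFS1 and NDUFS7, NDUFV2 became lower at -0.53 (edgeR adjusted p = 2.56e-05), and NDUFV1 became higher at 0.18 (edgeR adjusted p = 0.0466).

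Complex III looked different after that step. CYC1 stayed lower, at -0.18 (edgeR adjusted p = 0.00962), UQCRC1 did too at -0.29, and UQCRC2 became lower at -0.13, but UQCRB turned to 0.12 (edgeR adjusted p = 0.0456), above its chromosome. UQCRH at 0.11 and UQCRFS1 at 0.04 were no longer called (edgeR adjusted p = 0.147 and 0.553). NDUFB9 turned as well, to 0.48 (edgeR adjusted p = 5.41e-08), since it fell less than the median gene of chromosome 14. NDUFS4 came to -0.08 and NDUFA10 to 0.04, neither called. Thus the direction given for NDUFB9, UQCRB, UQCRH, NDUFA10 and NDUFS4 depends on whether the chromosome's shift is kept in.

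The nearest genes gave a local view, which for some members differed from the chromosome median. Among the 20 nearest tested genes of CYC1, 20 were lower and 0 higher, with a median log2 fold change of -1.13. Around NDUFS6, 18 of 20 were higher and 0 lower, with a median of 0.84. NDUFB9 and UQCRB had neighbours with medians of -1.08 and -0.82, beside their own -0.35 and -0.70. Those of NDUFS8 had a median of -0.56, near its own -0.52 and below the -0.26 of chromosome 29. The neighbours of NDUFV1, on the same chromosome, also had a median of -0.56, but NDUFV1 itself had -0.09. By contrast, the neighbours of NDUFA5, NDUFA4 and COX5A had medians of -0.09, -0.21 and -0.09, so these members rose in stretches whose median gene did not. UQCRFS1 lies on chromosome 18, whose median was 0.32, but its 10 nearest tested genes had a median of -0.09, with 4 higher and 5 lower. The neighbours of UQCRC2 had a median of 0.42, against 0.08 for chromosome 25. The cause of these shifts was not tested.

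The libraries of the members varied less in knockout than in wild type, where replicate 3 stood apart. Wild-type replicates 1 and 2 had a chi-square per degree of freedom of 2.79, near the knockout pairs (2.27 to 2.74). The median coefficient of variation over the 30 members was 3.56% in knockout libraries and 7.05% in wild-type libraries, and it was larger in wild type for 23 of 30. Over the 5335 tested genes in the same range of levels it was 3.55% in knockout and 5.001% in wild type, larger in wild type for 3605.

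Other subunits of the same complexes give the surroundings of the members. Of 24 such genes that were not members, 15 were higher and 4 lower, with a median log2 fold change of 0.20. Among 16 complex I genes, 9 were higher and 3 lower. NDUFB1 rose by 0.79 ± 0.19, the acyl carrier protein NDUFAB1 by 0.72 ± 0.05 and NDUFC1 by 0.71 ± 0.10 on the log2 scale, and NDUFS5 and NDUFC2 had -0.46 ± 0.07 and -0.35 ± 0.05. In complex III, UQCRQ at 0.37 ± 0.05 and UQCR10 at 0.19 ± 0.05 were higher, and UQCR11 at -0.09 ± 0.06 was not called. In complex IV, 4 of 5 genes were higher, among them COX7A2 at 0.61 ± 0.08, COX6A1 at 0.45 ± 0.14 and COX7B at 0.25 ± 0.05, and COX7A2L, which helps join complexes into supercomplexes, was lower at -0.42 ± 0.05. With members and other subunits together, the 3 subunit genes of chromosome 17 and the 3 of chromosome 18 were all higher.

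The tissue-restricted or hypoxia-linked forms of complex IV subunits were scarce. COX4I2, COX6A2, COX8B and NDUFA4L2 reached at most 4 counts in a library and were not tested. COX7A1, the heart and muscle form, was lower at -0.84 ± 0.15 (edgeR adjusted p = 7.72e-05), with 4.26 ± 0.260 CPM in knockout, against 7.63 ± 1.27 CPM in wild type (SD, n = 3 each). COX6B2 had 0.17 ± 0.23 and was not called.

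**Figure D4:**
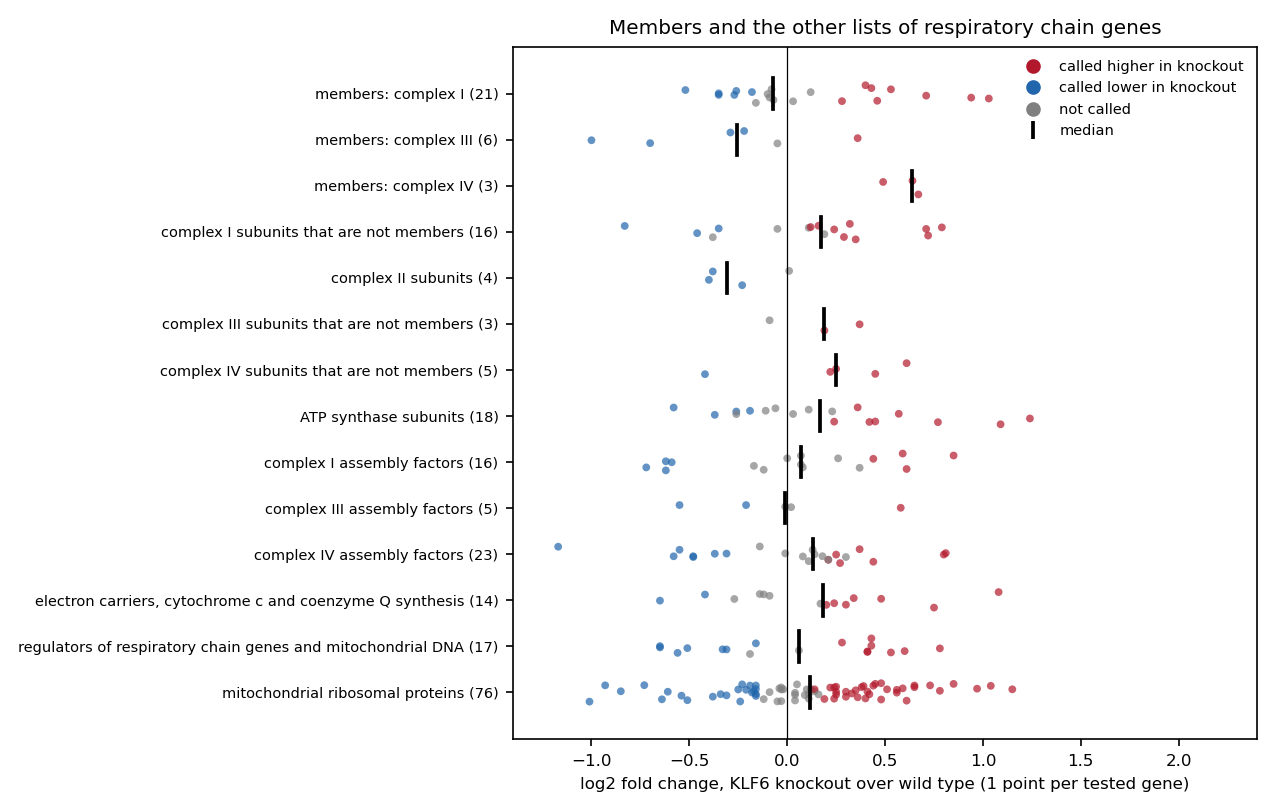
Log2 fold change, KLF6 knockout over wild type, of each tested gene in the member groups (top 3 rows) and in the other lists, with the number of genes in parentheses and a black tick at the median. Red points were called higher, blue lower and grey not called, and apart from complex II every row with more than 3 genes holds both red and blue points.

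Complex II, which feeds electrons from succinate and was not among the members, had no gene called higher. SDHC at -0.38 ± 0.04 and SDHD at -0.40 ± 0.05, its membrane anchors, and the iron-sulphur subunit SDHB at -0.23 ± 0.07 were lower, though libraries of SDHB overlapped. The flavoprotein SDHA had 0.01 ± 0.05 and was not called. With chromosome medians taken out, SDHC at 0.02 was no longer called, SDHA became lower at -0.47, and SDHB and SDHD stayed lower. Cytochrome c, the carrier between complexes III and IV, rose strongly. Its gene CYCS had 139, 120.1 and 125 CPM in knockout libraries and 62.4, 56.7 and 62.3 CPM in wild-type libraries, widely apart, a log2 fold change of 1.08 ± 0.06 (edgeR adjusted p = 1.76e-11). Of the 14 genes for electron carriers and coenzyme Q synthesis, CYCS included, 7 were higher and 2 lower. That is 64.3% called, against 74.6% of all tested genes. COQ10B at 0.75 ± 0.08 and COQ10A at 0.48 ± 0.09 were higher. COQ5 at -0.65 ± 0.10 and COQ2 at -0.42 ± 0.07, both enzymes of coenzyme Q synthesis, were lower.

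Of 18 ATP synthase genes found by symbol, 8 were higher and 4 lower, with a median of 0.17. That is 66.7% called, against 74.6% of all tested genes. The small membrane subunits ATP5MD and ATP5MPL rose most, at 1.24 ± 0.09 and 1.09 ± 0.06. ATP5MD averaged 173 ± 5.69 CPM in knockout, against 73.4 ± 11.7 CPM in wild type (SD, n = 3 each). The genes ATP5MC1 and ATP5MC2, which encode the same mature subunit c, moved in opposite directions, at 0.77 ± 0.18 and -0.58 ± 0.05. ATP5PB and ATP5F1D were also lower, at -0.37 ± 0.04 and -0.26 ± 0.04. Mitochondrially encoded subunits matched no row by symbol and were not analysed here.

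Assembly factors were divided as well. Of 16 for complex I, 4 were higher and 4 lower, led by NDUFAF4 at 0.85 ± 0.13, NDUFAF5 at 0.61 ± 0.11 and ACAD9 at 0.59 ± 0.07, and by TIMMDC1 at -0.72 ± 0.13, TMEM126B at -0.62 ± 0.10 and FOXRED1 at -0.62 ± 0.08. Of 5 for complex III, TTC19 was higher at 0.58 ± 0.08, and UQCC1 at -0.55 ± 0.10 and UQCC3 at -0.21 ± 0.06 were lower. Of 23 for complex IV, 7 were higher and 7 lower. CMC2 at 0.81 ± 0.06, PET117 at 0.80 ± 0.30, whose libraries overlapped, and TACO1 at 0.44 ± 0.10, a translation activator of a mitochondrial subunit, were among the higher ones. COA5 at -1.17 ± 0.17, COX20 at -0.58 ± 0.09 and the membrane insertase OXA1L at -0.55 ± 0.08 were lower.

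Genes known to control the respiratory chain and mitochondrial DNA also went both ways, 8 higher and 7 lower of 17. That is 88.2% called, against 74.6% of all tested genes. The coactivator PPRC1 rose by 0.78 ± 0.05, with 87.5 ± 0.807 CPM in knockout, against 50.8 ± 1.38 CPM in wild type (SD, n = 3 each), the mitochondrial RNA polymerase POLRMT by 0.60 ± 0.07 and the GABP subunit GABPB1 by 0.53 ± 0.10. The coactivator PPARGC1B at -0.65 ± 0.13, GABPB2 at -0.65 ± 0.16 and MTERF1 at -0.56 ± 0.12 were lower. PPARGC1A reached at most 1 count in a library and was not tested. Of 76 mitochondrial ribosomal protein genes, 35 were higher and 22 lower, with a median of 0.12. MRPL33 at 1.15 ± 0.17, MRPS17 at 1.04 ± 0.12 and MRPL36 at 0.97 ± 0.06 stood at the top, and MRPL47 at -1.01 ± 0.11, MRPL13 at -0.93 ± 0.08 and MRPL57 at -0.85 ± 0.09 at the bottom.

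The authors' deposited table, which lists genes up to an adjusted p-value of 0.0499, holds 22 of the 30 members, 12 with a log2 fold change above 0 and 10 below 0. The largest difference between a member's log2 fold change in the authors' deposited table and the one fitted here was 0.014 among the genes in both.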

How the data were processed

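Whole-number counts per gene for 6 libraries were deposited by the authors, with gene symbols, coordinates and lengths. The submitters' processing notes name featureCounts 1.5.0-p3 and HISAT2 2.0.5, without roles or settings. TRIzol extraction, DNase I treatment and the kit (Ion Total RNA-Seq Kit v2) are as per the labels' protocols. As the sources used here give no genome build, annotation or strand setting, coordinates are those of the count table.

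The authors' deposited comparison table gives a log2 fold change, a p-value and a normalized signal (counts divided by 1 factor per library, within a relative deviation of 5.11e-15). Which model gave that p-value is unknown here.

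Knockout and wild-type counts were compared over all genes with edgeR 4.0.16 in R 4.3.3, with TMM scaling, filterByExpr (minimum count 10, minimum total 15) and robust quasi-likelihood tests. P-values were adjusted by Benjamini-Hochberg, with calls at 0.05. This left 13390 genes, and the common biological coefficient of variation was 0.0558. Each SE is the absolute log2 fold change divided by the root of F. CPM use TMM-scaled libraries, and RPKM divide them by gene length. Unnamed loci (630 rows, 0.807% to 0.884% of a library) stayed in. The labels give no batch. Alternatives were DESeq2 1.42.0, limma 3.58.1 (voom), other scalings and filters, glmTreat, chromosome medians as an offset, a replicate block and leaving out each library. The procedure was tested on simulated data.

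Members and lists were chosen with earlier results of these data known. All members are named, and from each other list up to 3 called genes per direction with the largest change. ATP5MC3 is named in addition, beside the other genes for subunit c. A gene that the rule picks from the other complex I subunits is not reported here. Symbols missing from the count table were looked up by accession in a RefSeq gene table (ARS-UCD2.0), used for names only. No promoter or protein sequences were used here.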

Additional observations from a re-analysis of the deposited data

How the results depend on the processing

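The counts of 12 members higher and 10 lower were the same with DESeq2, limma-voom, DESeq2 size factors, a filter of 1 CPM in 3 libraries and the unnamed loci left out, the last chosen after the data were seen. Total count scaling and no filter each gave 12 and 11. Against a fold of 1.2, glmTreat called 11 higher and 5 lower, with 3 lower in complex I and 2 in complex III. Leaving out 1 library at a time gave 12 to 14 higher and 10 to 11 lower. Over these settings, glmTreat and chromosome medians apart, 22 called members held their call and direction. A further 4 were called in none (NDUFB3, NDUFB5, UQCRC2 and NDUFV1). The other 4 (NDUFA2, NDUFA8, NDUFS3 and NDUFV2) were called in some. NDUFA2 reversed to -0.02 with total count scaling and ran from -0.11 to 0.25 without 1 library, and NDUFV1 from -0.15 to 0.02. Chromosome medians taken out reversed NDUFA2 (-0.07), NDUFA10 (0.04), NDUFB5 (0.04), NDUFB9 (0.48), NDUFS3 (0.11), NDUFS4 (-0.08), NDUFV1 (0.18), UQCRB (0.12), UQCRH (0.11) and COX6C (0.09), by construction of that offset.

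Replicate numbers did not pair the libraries, with correlations of -0.0372, 0.0675 and -0.0197 between same-numbered libraries, and only the libraries numbered 2 correlated best with each other. With a replicate block, 12 members were higher and 10 lower.

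With 3 libraries per genotype of unknown origin, precision reflects these libraries. Intervals of depth cover counting error only. The differences of NDUFB3, NDUFB5 and UQCRC2 were not detectable beyond the spread, which does not show equal levels. Only with chromosome medians taken out was UQCRC2 called lower, at -0.13.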
